A study of Gallus gallus with 12 samples.

Results

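Among 18241 numbered genes measured in the oviduct of Lohmann layers (Gallus gallus), a hybrid kept for egg production, 99 met the rule below. They were higher at 300 days than at 120 days of age in both segments examined, the magnum and the uterus. The members were chosen by their deposited expression values. In each of them all 6 libraries at 300 days lay above all 6 at 120 days, and the 300-day mean was at least 2 times the 120-day mean plus 1 in the magnum and again in the uterus. The uterus mean at 300 days was also between 0.25 and 4 times that of the magnum, and the mean of the 6 libraries at 300 days was at least 100. The age difference of a member and its similar level in both segments at 300 days are therefore given below as descriptions, with no test. The magnum difference depends on the scale. After division of each library by its own total, 38 of the 99 were higher at 300 days in the magnum and 99 in the uterus. The gene table lists 19820 genes in all, of which 1579 carry a new-gene label and were left out by the rule.

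The oviduct of the hen is a tube of secretory segments that grows and differentiates under estrogen and progesterone as the hen comes into lay. In the laying hen the magnum secretes the egg white proteins, and the uterus, or shell gland, secretes the fluid and the calcium carbonate from which the eggshell is formed. Both segments have a lining of surface epithelium with tubular glands beneath it, on a wall of connective tissue and smooth muscle.

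Messenger RNA was sequenced from the magnum at 120 and 300 days and from the uterus at 120 and 300 days, with 3 libraries in each of the 4 groups. According to the series title the hens were sampled before and during lay, so age and laying state cannot be told apart. The labels name no treatment or genotype, and they do not say whether a group's 3 libraries are 3 birds. P-values thus measure only the spread between these libraries, which may be technical. In bulk tissue, more cells of a type and more RNA per cell cannot be told apart.

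The identifiers of the table are numbers, and 0 of the 19820 were found in the chicken reference table used here (GRCg7b). Tissue markers could not be checked for the same reason. The members have no symbol, function or position here, and they are described by level, size of the age difference, library pattern and length. The identifier of the most abundant member, gene9586, and that of the member with the largest age difference, gene2702, stand as examples, and the other members are given by rank. Abundant here means a high mean scaled count at 300 days. That value is not divided by gene length, so the order is not one of transcript number.

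The values, called scaled counts here, are whole numbers that were brought to a common level before deposit. They show a gene relative to a typical gene of its library. The columns summed to between 14499548 and 77432154 scaled counts, with the 3 highest sums in the magnum at 300 days. These sums are not sequencing depth, which is unknown for 8 libraries. In the 3 magnum libraries at 300 days 1 read was worth about 2.27, 2.37 and 1.95 scaled counts. At that depth 19 of the 99 members had fewer than 100 reads in at least 1 of these libraries, and the lowest value stood for about 14.9 reads, which leaves a wide counting error for the rarest members.

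The member with the highest mean scaled count at 300 days was gene9586. Its listed length of 15743 bases was close to the longest among the members, 15945, and the scaled count is not corrected for length. Its magnum values were 9052, 6172 and 7546 scaled counts in replicates 1 to 3 at 120 days and 20016, 16290 and 17859 at 300 days. In the uterus it stood at 13541, 7402 and 6694 at 120 days and at 22583, 19236 and 20698 at 300 days. Uterus replicate 1 was the highest library at 120 days and came closest to the 300-day values, yet it stayed below all 6 of them. The means were 7590 ± 1441 and 18055 ± 1871 in the magnum and 9212 ± 3765 and 20839 ± 1678 in the uterus (SD, n = 3 each). This made a difference between the ages of 1.25 in the magnum and 1.18 in the uterus on the log2(mean + 1) scale. Its mean over the 6 libraries at 300 days was 129.3 FPKM, the tenth highest among the members. FPKM is the authors' deposited value, which is not relative to each library's own total here. It did not follow the scaled count over the listed length, so this rank is not one of level per listed base.

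Levels spanned a wide range. The mean over the 6 libraries at 300 days ran from 105.2 to 19447 scaled counts with a median of 1462. It was below 1000 in 39 members, from 1000 to below 10000 in 51 and at least 10000 in 9. Those 9 held 39.9% of the members' summed 300-day means. In the deposited FPKM, the mean at 300 days ran from 0.901 to 409.45 with a median of 18.2. These values did not follow the scaled count over the listed length. The member ranked 3 had similar means in the magnum and the uterus at 300 days, 16779 and 18092 scaled counts, but 64.8 and 340.1 FPKM. FPKM is therefore not read as a level per listed base. The member with the highest FPKM was a short gene of 682 bases, ranked 48 of 99 by scaled count. Its magnum values were 191, 285 and 305 scaled counts at 120 days and 3039, 773 and 851 at 300 days, and its uterus values were 158, 184 and 630 and then 1544, 1004 and 2397. The groups did not overlap, but single libraries stood well above their partners, magnum replicate 1 at 300 days and uterus replicate 3 at both ages.

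**Figure D1:**
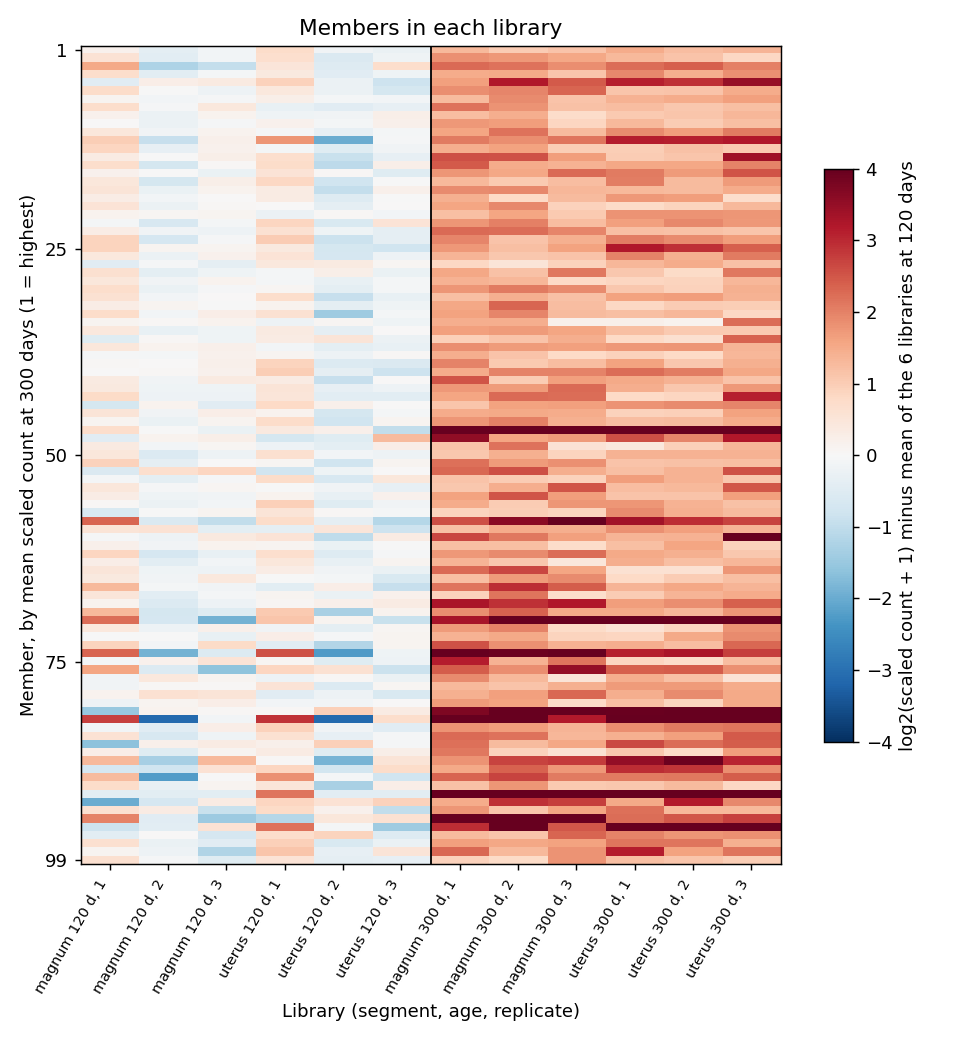
Each row is 1 of the 99 members, ordered by mean scaled count at 300 days, and each column is 1 of the 12 libraries (segment, age in days and replicate). Colour gives log2(scaled count + 1) minus the member's mean over the 6 libraries at 120 days, with colours ending at 4 in either direction. In each row the columns at 300 days lie above those at 120 days, as the rule requires, and replicate 1 at 120 days is redder than its partners for most members (68 by magnum, 70 by uterus libraries).

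For most members the age difference was moderate. The median was 1.61 in the magnum and 1.47 in the uterus on the log2(mean + 1) scale, beside -0.01 in both segments over the 14883 genes tested, those that reached 10 scaled counts in 3 or more libraries. In the magnum 75 members lay between 1 and 2, 14 between 2 and 3, and 10 at 3 or above, and in the uterus the counts were 76, 13 and 10. A total of 65 members stayed below 2 in both segments, 13 reached 2 in both and 6 reached 3 in both. All 6 libraries at 300 days lay above all 6 at 120 days in 3.94% of the 14883 genes, a share the members meet by choice and from which nothing is read.

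Members with a large difference spanned a wide range of levels. Of the 14 members with a difference of at least 3 in either segment, 10 had a 300-day mean below 1000 scaled counts, and their median was 424.25, against 2239 for the 65 members below 2 in both. At the far end stood gene2702, a gene of 2156 bases. It was listed at 0 in all 3 magnum libraries at 120 days, where no fold is therefore given, and at 278, 211 and 95 scaled counts at 300 days. In the uterus its values were 5, 0 and 0 at 120 days and 231, 74 and 202 at 300 days, a difference of 5.99 on the log2(mean + 1) scale that depends on the pseudocount. It was the only member listed at 0 in every library of a group. Its place at the top of the order also rests on that pseudocount.

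**Figure D2:**
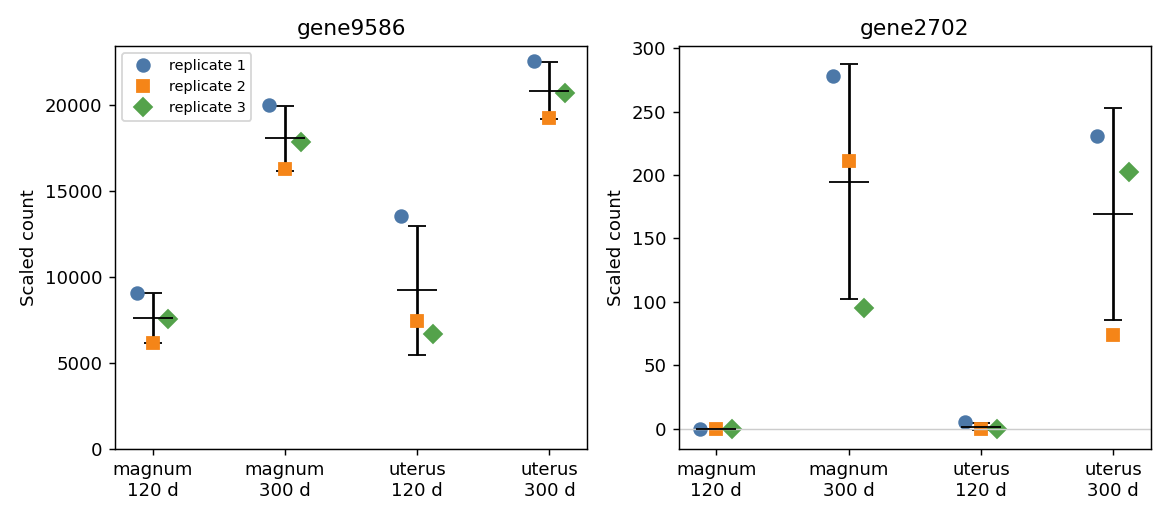
Scaled counts of gene9586 (left) and gene2702 (right) in the 4 groups, with a symbol for each replicate, the mean as a horizontal line and the SD as a bar (n = 3). For gene9586 the 300-day libraries lie between 16290 and 22583, and for gene2702 the 120-day libraries lie between 0 and 5.

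Among the other 98 members the difference ran from 1.003 to 5.48 in the magnum and from 1.03 to 5.64 in the uterus. The member ranked 47 by level had the highest uterus value of these. It went from 60, 36 and 30 scaled counts to 2738, 712 and 819 in the magnum and from 48, 42 and 18 to 2056, 1322 and 2146 in the uterus. Magnum replicate 1 at 300 days was over 3 times as high as its partners, and even the lowest 300-day value was far above the highest 120-day one. The member ranked 70 had the highest magnum value of the 98, with 51, 6 and 2 at 120 days and 108, 598 and 2057 at 300 days. Its magnum libraries at 300 days differed from each other more than replicate 1 at 120 days differed from replicate 1 at 300 days, so the size of its difference rests largely on replicates 2 and 3.

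The sizes of the difference in the 2 segments are set side by side here as a description, since the rule used both. The absolute gap between the magnum and the uterus difference had a median of 0.32 on the log2 scale, it was below 0.5 in 65 members, and it reached 1 in 11. The magnum difference was the larger in 53 of 99. Across the 98 members, which are not independent replicates, Pearson's r between the segments was 0.741 and Spearman's rho 0.478. Over the 85 members below 3 in both segments r was 0.399. Leaving out large differences narrows the range in both segments, which tends to lower r, so nothing is read from that fall. The bounds on level and on the segment ratio at 300 days limit how far the segments could diverge, so these values describe the members chosen and no more.

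**Figure D3:**
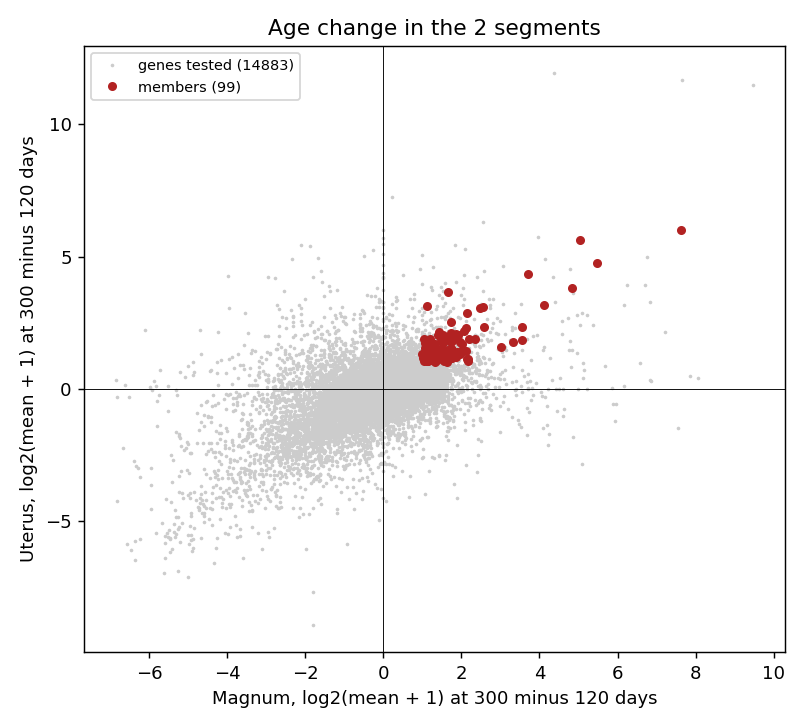
Difference between 300 and 120 days in the magnum (x axis) and in the uterus (y axis), both as log2(mean scaled count + 1), for the 14883 genes tested (grey) and the 99 members (red). The members fill the corner above 1 on both axes, most of them between 1 and 2, and the isolated point at the upper right is gene2702, whose magnum position depends on the pseudocount.

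At 300 days, where the rule bounded the ratio of the segments, the uterus mean was the higher in 43 members and the magnum mean in the rest, with a median log2 difference (uterus minus magnum) of -0.11 and quartiles of -0.49 and 0.26. All 3 uterus libraries lay above the 3 of the magnum in 11 members and below them in 13, together 24 of 99, beside 44.1% of all genes tested. Nothing is read from that lower share, since the rule held the ratio between 0.25 and 4 and used these same values in its other conditions. The member with the strongest lean to the uterus, ranked 95, held 40, 125 and 29 scaled counts in the magnum and 304, 225 and 107 in the uterus. The strongest lean to the magnum was that of the member ranked 94, with 208, 282 and 169 against 51, 61 and 72.

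The difference between the segments at 120 days was not itself a condition of the rule, though the rule used the same 120-day values. That difference was tested with limma's moderated test over all genes. No member passed for uterus against magnum at 120 days: the count was 0 of 99 at a Benjamini-Hochberg adjusted p below 0.05, where 92 of the 14883 genes passed (0.618%), and the lowest adjusted p among the members was 0.238. At an unadjusted p below 0.05 there were 8 members (8.08%), 3 higher and 5 lower in the uterus, beside 9.62% of all genes. The segments did not overlap at this age in 6 members, beside 13.3% of all genes. The fitted log2 difference had a median of -0.07 over the members and -0.01 over all genes. In absolute size its median was 0.25 with a median SE of 0.36, beside 0.27 and 0.32 over all genes. It reached 1 in 2 members (2.02%), beside 9.31% of all genes. The rule required every 120-day value to lie below every 300-day value of both segments. This caps how far either segment could stand above the other. Neither the count of 0 nor the members' lower shares are therefore read as a result.

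For gene9586 the fitted difference at 120 days was 0.22 ± 0.26 (SE, adjusted p = 0.843), and for gene2702 it was 0.86 ± 0.755 (SE, adjusted p = 0.789). The member with the lowest p, ranked 37, held 1023, 825 and 859 scaled counts in the magnum and 697, 565 and 609 in the uterus at 120 days. Its libraries did not overlap, and the difference was -0.53 ± 0.16 (SE, limma, adjusted p = 0.238). The largest difference, 1.57 ± 0.62 (SE, limma, adjusted p = 0.427), was found for the member ranked 92, at 7, 19 and 39 in the magnum and 57, 47 and 59 in the uterus. A p above the threshold does not show that the segments were alike at 120 days. With the deposited FPKM values and a pseudocount of 0.1, 1 member passed, ranked 79, with a log2 difference of -1.02 ± 0.20 (SE, limma, adjusted p = 0.0496). The same member had -0.84 ± 0.27 (SE, adjusted p = 0.27) on scaled counts. The background of 92 genes depended on single libraries and on the fit. It was 3 when the 6 libraries at 120 days were fitted alone. Among the 120-day libraries, it was 34 when magnum replicate 3 was left out, 41 when uterus replicate 1 was and 56 when uterus replicate 3 was. Leaving out the 300-day uterus library 1 or 2 gave 60 each time. A block for the replicate number shared by both ages gave 58, and a block for each number within an age gave 96, of which 61 were among the 92. The count of members was 0 in each of these. The main fit had no term for the replicate number, although magnum and uterus libraries of the same number deviated together at 120 days. Its SE and p-values leave that pairing out. With a block for each number within an age, 14 members had an unadjusted p below 0.05 (limma), beside 2130 of the 14883 genes. The lowest adjusted p among the members was then 0.144.

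**Figure D4:**
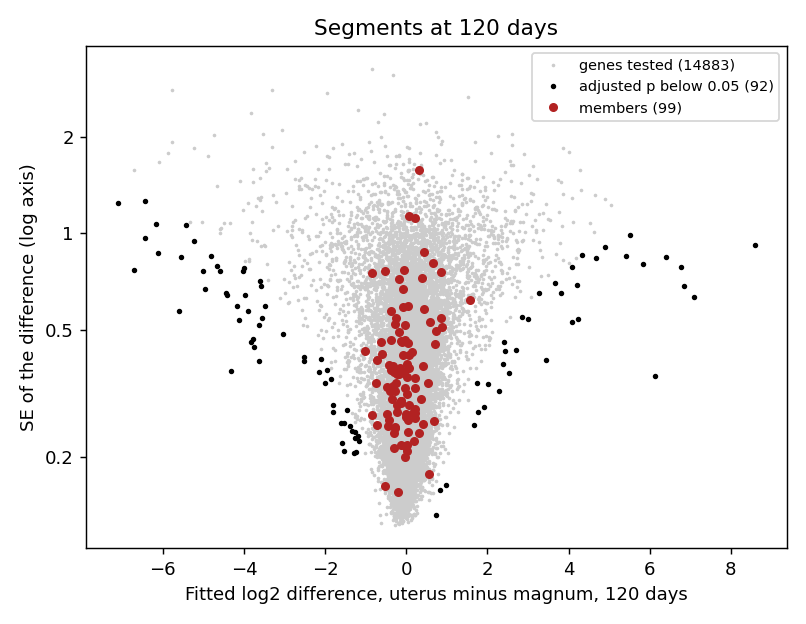
Fitted log2 difference between uterus and magnum at 120 days (x axis) against its SE (y axis, log scale) for the 14883 genes tested (grey), the 92 with an adjusted p below 0.05 (black) and the 99 members (red). The members lie around 0, between -1.02 and 1.57, and none is among the black points.

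Within the 120-day groups, replicate 1 stood nearer to the 300-day level than its partners in most members. It was the highest of the 3 magnum libraries in 68 of 99 members (68.7%) and of the 3 uterus libraries in 70 (70.7%), beside 36.7% and 27.5% of all genes tested. It was the highest in both segments at once in 52 members (52.5%), beside 14.9% of all genes. The median distance of replicate 1 from the mean of the other 2 libraries was 0.45 in the magnum and 0.69 in the uterus on the log2 scale, and that of replicate 2 was -0.40 in both. Over all genes tested the distances at 120 days lay between -0.04 and 0.06. The rule treats the replicates alike, but it used these same values, so no test is given. The third most abundant member shows the pattern at its widest among the 10 highest, with magnum values of 11163, 1645 and 1997 scaled counts at 120 days and uterus values of 5377, 2740 and 6311. Its 300-day values ran from 14072 to 20507. Magnum replicate 1 was thus closer to the 300-day values than to its own partners, whereas in the uterus replicate 3 was the highest.

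The genes that meet the mirrored rule, lower at 300 days in both segments by the same bounds, show the same library pattern with the sign turned. There were 517 of them. Replicate 1 at 120 days was the lowest of its group in 88.6% of these in the magnum and 80.5% in the uterus, and the lowest in both at once in 76.2%, beside 20.1% of all genes tested. Its median distance from the other 2 libraries was -0.81 in the magnum and -1.02 in the uterus. In both gene groups replicate 1 at 120 days was thus displaced toward the 300-day libraries. Both groups were chosen from these same values, so the second is not independent evidence, and no test is given.

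Replicate 1 at 120 days, in either segment, also bore on where the group of members ended. The highest of the 6 values at 120 days came from magnum replicate 1 in 40 members and from uterus replicate 1 in 41. A further 101 genes met every other condition and were kept out by overlap alone, 70 of them through replicate 1 at 120 days only. Other bounds kept out genes as well. The 2-fold bound alone kept out 91 genes in the uterus and 37 in the magnum. The bound on level alone kept out 19 and that on the segment ratio 10. Without magnum replicate 1 at 120 days 166 genes met the rule, 97 of them members. When both 120-day libraries numbered 1 were left out, an alternative chosen after seeing the data, the number was 284, of which 96 were members. The values on either side of the other bounds were as follows. The closest members had a lowest 300-day value of 1.01 times the highest 120-day value, where the nearest genes outside had 1 and 0.992. In the magnum the 300-day mean over the 120-day mean plus 1 was 2.002 for the closest member and 1.98 for the nearest gene outside, and in the uterus these were 2.04 and 1.996. The lowest mean at 300 days was 105.2 scaled counts inside and the nearest outside was 74.5. The uterus mean over the magnum mean at 300 days ended at 0.279 and 3.28 inside, with 0.230 and 4.32 nearest outside.

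**Figure D5:**
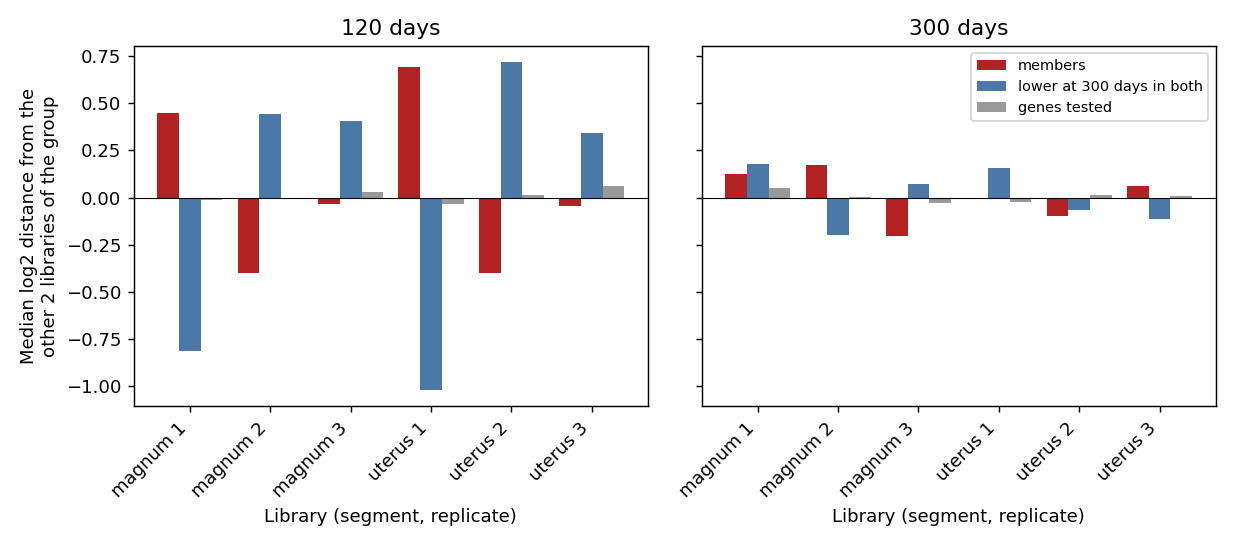
Median log2 distance of each library from the mean of the other 2 libraries of its group, at 120 days (left) and 300 days (right), for the 99 members (red), the 517 genes lower at 300 days in both segments (blue) and the 14883 genes tested (grey). Replicate 1 at 120 days is displaced upward in the members, by 0.45 and 0.69, and downward in the other gene group, by 0.81 and 1.02, while the distances at 300 days stay between -0.21 and 0.18.

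At 300 days the median distances over the members lay between -0.21 and 0.17. Magnum replicate 3 had the lowest of these. It was the lowest of its group in 50 members (50.5%), beside 38.6% of all genes tested, and the lowest of the 6 libraries in 25. The rule used these values, so nothing is read from that share. Uterus replicate 3 stood apart for a few members. It was at least 2 times as high as either partner in 9 members (9.09%), beside 3.49% of all genes tested, and in these it stood 2.05 to 7.01 times above the higher of the other 2. The widest case, ranked 60, had uterus values of 418, 426 and 2986 at 300 days, after 235, 80 and 203 at 120 days. The most abundant of the 9, ranked 14, had 3197, 3420 and 16660, after 2520, 852 and 1262. In the magnum the same member stood at 9414, 9328 and 5070, with replicate 3 the lowest, and magnum replicate 3 was the highest of its group in 3 of the 9. For 5 of the 9 the uterus mean at 300 days fell short of the 2-fold bound once uterus replicate 3 was left out. Their place among the members depends on that library. A high library raises the mean that the rule bounded, so the share of 9.09% is not read as a result.

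The magnum part of the age difference depends on the scale. As a share of their library, the members together held 0.642% ± 0.0748 of the magnum total at 120 days and 0.553% ± 0.0985 at 300 days (SD, n = 3 each). The 3 magnum libraries stood at 0.584%, 0.615% and 0.726% at the younger age and at 0.557%, 0.453% and 0.649% at the older, so the ages overlap. In the uterus the share was 0.731% ± 0.218 at 120 days and 1.93% ± 0.112 at 300 days. The single values were 0.967%, 0.538% and 0.689% and then 1.94%, 1.81% and 2.03%, with no overlap. After division of each library by its own total the median magnum difference of the members was -0.12 on the log2 scale and 38 of 99 were still higher at 300 days. That division moved the median of all genes in the magnum to -1.79. Relative to it the members stood 1.67 higher, beside 1.62 with the deposited scaling. A divisor shared by all genes of a library shifts members and typical genes alike, so these values are close by construction and nothing is read from them. In the uterus 99 of 99 stayed higher after the division, with a median of 1.30. The members were chosen for being higher with age in the magnum relative to a typical gene, and together they were not higher as a share of the library.

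The deposited FPKM values keep a scale close to that of the scaled counts, with a median age difference over all genes tested of 0.05 in the magnum and -0.01 in the uterus, so they are no second check of the share of the library. With them all 99 members were higher at 300 days in both segments, with medians of 1.63 in the magnum and 1.46 in the uterus on the log2(mean + 0.1) scale. The 2-fold bound, with 0.1 added in place of 1, was met by 96 members in the magnum and by 91 in the uterus. The members' libraries did not overlap between the ages in 98 members in each segment taken alone and in 88 members with both segments together. The members had been chosen for this separation in the same libraries. These counts are thus no separate check, and the share over all genes is not given here. The rule applied to FPKM values, with 0.1 added and the level bound kept on scaled counts, was met by 94 genes, of which 79 were members. After upper quartile rescaling of the scaled counts the whole rule was met by 67 genes, of which 66 were members.

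The median length of the members was 3958 bases, with quartiles of 2394.5 and 6838.5, beside a median of 3868 and quartiles of 2258 and 6228.5 for the 10702 numbered genes that reach a mean of 100 at 300 days. Single lengths ran from 390 to 15945 bases. The 4 members shorter than 600 bases (4.04%, beside 3.14% of the genes tested) were all close to the level bound, with 300-day means of 105.2 to 136.5 scaled counts. Their deposited FPKM was 17.7 to 26.9, beside the members' median of 18.2. Since FPKM did not follow the scaled count over the listed length, it is not read as their level per length.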

How the data were processed

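Total RNA from the magnum and the uterus was made into 12 libraries (Smarter mRNA-seq, per the labels' protocols). The submitters' processing notes name, without role or order, Cufflinks 2.0.2, GATK 3.8, TopHat2 2.0.8, Trimmomatic 0.32 and FastQC 0.11.6. Genome build, annotation and counting method: not given in the sources used here. How reads of overlapping or near-identical genes were split could thus not be judged. Members, lists and tests were chosen with earlier results of these data known.

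The deposited gene table holds whole numbers that were treated as scores, meaning counts scaled before deposit: the 12 columns' median-of-ratios size factors lay between 0.974 and 1.01. The value of 1 read was estimated in the 4 magnum libraries whose low values skip whole numbers. For each step tried, the share of values up to 100 on its truncated multiples was compared with the share of whole numbers on them. The step with the largest excess was taken. The FPKM values are as deposited by the authors, and the gene lengths come from the deposited gene table.

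Differences between ages were computed as log2(mean + 1). The fit for uterus against magnum at 120 days used limma 3.58.1 (R 4.3.3), two-sided, on the log2(scaled count + 1) scale with a mean-dependent prior, all 12 libraries, a coefficient per group and 8 residual degrees of freedom, for genes that reached 10 scaled counts in 3 or more libraries. It was checked on simulated data with known answers. Those values were drawn independently for each library, so the check did not cover deviations shared by libraries. Magnum and uterus libraries with the same number in their titles deviated together at 120 days. The correlations across genes were 0.361, 0.591 and 0.390 for replicates 1 to 3. This was taken as pairing for that comparison, but the main fit had no term for it, so its SE and p-values leave it out. An alternative fit, with a block for each replicate number within an age, did. At 300 days the correlations were 0.198, 0.216 and 0.0838. Named identifiers were the member with the highest mean at 300 days and, as no member passed at 120 days, the one with the largest mean age difference. Other members singled out were chosen after their values were seen. Python 3.11.15, NumPy 2.4.6, pandas 2.3.3 and matplotlib 3.10.9 were used.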

Additional observations from a re-analysis of the deposited data

How the results depend on the processing

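The number of genes meeting the rule was 9 after division by library totals, of which 4 were members, and 87 to 166 when single libraries were left out. It was 284 without replicate 1 of both segments at 120 days. The median age difference of the members in the magnum reversed to -0.12 after division by library totals. By construction that division lowers every magnum gene at 300 days relative to the deposited scale. The deposited scale is a choice as well, and which of the 2 is nearer to the amount of RNA was not tested. The magnum median was 1.44 after upper quartile rescaling, 1.44 to 1.72 without single libraries and 1.72 without replicate 1 of both segments. In the uterus it was 1.30 after division by totals, 1.37 after upper quartile rescaling, 1.31 to 1.73 without single libraries and 1.73 without replicate 1 of both segments. Pseudocounts of 0.1 and 10 and the FPKM values moved neither median by more than the spread between libraries. Between the segments at 120 days the number of members called was 0 in 22 of 23 alternatives, all 12 that left out a library and both with a replicate block included, and 1 with FPKM values at a pseudocount of 0.1. Of all genes, 58 were called with FPKM values at a pseudocount of 1, 3 with the 6 libraries at 120 days alone, 58 with the replicate block over both ages (55 of them among the 92), 96 with the replicate block within each age (61 of them among the 92), 34 to 126 without single libraries and 43 without replicate 1 of both segments. The cause of these moves was not tested. Depth is unknown for 8 libraries, and rare members rest on few reads.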

Other observations

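Some members carry identifiers whose numbers lie close together. The files do not say what the numbers stand for, and no position on the genome is read from them. In 7 pairs, 14 members in all, the numbers were at most 10 apart, and in 2 of these pairs they were consecutive. How many such pairs an equal number of other genes would give was not computed, so the count is not read as a result. One consecutive pair holds the members ranked 70 and 58 by level. The first had magnum values of 108, 598 and 2057 scaled counts at 300 days and the second 686, 1402 and 2094, so both had replicate 1 lowest and replicate 3 highest. In the uterus at 300 days the order was the opposite in both, with 566, 311 and 266 for the first and 1187, 893 and 758 for the second. At 120 days replicate 1 was the highest in both segments for both members, at 51 and 23 for the first and 575 and 192 for the second. The number of gene2702 lies 3 above that of the member ranked 82, which was listed at 56, 0 and 7 in the magnum and at 63, 0 and 13 in the uterus at 120 days, and at 754, 318 and 76 and at 407, 154 and 154 at 300 days. Magnum replicate 3 was the lowest and replicate 1 the highest at 300 days in both of these. Of the 14 members with an age difference of at least 3 in either segment, 4 belonged to these 2 pairs. The other consecutive pair, ranked 90 and 33, had small differences, 1.12 and 1.30 in the magnum and 1.06 and 1.21 in the uterus. Genes that share or overlap sequence can share reads, and this was not tested.

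Among the 1579 loci with a new-gene label, 7 met every other condition of the rule. The most abundant of them, with a length of 1247 bases, had magnum values of 4, 6 and 28 scaled counts at 120 days and 530, 1269 and 1140 at 300 days. In the uterus it held 104, 16 and 4 and then 411, 420 and 317. The other 6 had means at 300 days of 116.5 to 460.3 scaled counts. Uterus replicate 1 was again the highest of its group at 120 days in the most abundant locus, but magnum replicate 1 was the lowest of its own. This locus does not stand for the other 6, since magnum replicate 1 was the highest of its group in some of them and not in others.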
